A study of Mus musculus with 6 samples.

Results

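Imprinted growth genes are expressed mainly from 1 parental copy and are known for setting how much embryonic and newborn tissue grows. The set followed here holds 10 of them: the growth factor gene Igf2 and its neighbour H19, the ligand gene Dlk1 and its neighbour Meg3, the signalling adaptor gene Grb10, the membrane protein genes Mest and Nnat, and the nuclear regulator genes Peg3, Plagl1 and Ndn. A gene was counted as measured when the array annotation gave a probe set to it and to no other gene, and its level was read from the probe set with the highest mean over the 6 arrays. That gave 9 of the 10 genes, out of 18194 genes on the array, and 9 of the 14550 that were bright enough to test. H19 has no probe set of its own under that rule and was not analysed here. The members were chosen with earlier results of these arrays known.

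RNA for the arrays came from the sciatic nerve of pups at postnatal day 2, strain mixed, with its outer sheath, the perineurium, taken off. The 3 dKO samples were DhhCre+ and lacked HDAC1 and HDAC2, a pair of histone deacetylases, in Schwann cells, the glia that make peripheral myelin; their labels give peripheral hypomyelination as the disease state. The 3 control samples were DhhCre– littermates with no disease state. Cre was driven by the desert hedgehog gene Dhh, which is active in Schwann cell precursors. Such precursors are known to give rise to endoneurial fibroblasts as well, and which cells of these nerves kept the deacetylases was not measured. The labels do not say whether the controls carried floxed alleles, or how many pups or nerves went into a sample, so the spread between samples may be in part technical. The comparison asks which genes differ at the onset of myelination when Schwann cells lack both enzymes.

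In mouse, imprinted genes lie in clusters, in which a stretch of DNA methylated on 1 parental copy decides which copy each gene is read from. IGF2 is the growth factor of this family and signals through the IGF1 receptor, while the IGF2 receptor takes it up for degradation and GRB10 restrains the insulin and IGF1 receptors. Meg3 and H19 are long noncoding RNAs read from the maternal copy. Igf2, Dlk1, Peg3, Plagl1, Mest, Ndn and Nnat are read from the paternal copy, and Grb10 from the maternal copy in most tissues and from the paternal one in neurons. These arrays measure RNA from both copies together.

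Genes of this kind often start in windows rich in CG, and the KRAB zinc finger protein ZFP57 is known to keep imprints by binding the methylated hexamer TGCCGC. The windows of 300 bases around the starts of 3 members that rose are printed because each holds this hexamer. They come from RefSeq on mouse build GRCm38.p6, run from 250 bases before to 50 after a start, and capitals mark TGCCGC, which reads GCGGCA here because it lies on the opposite strand. The window of Nnat is chr2:157559828-157560127 on the plus strand, that of Mest is chr6:30737800-30738099 on the plus strand, and that of Meg3 is chr12:109540746-109541045 on the plus strand.
Nnat: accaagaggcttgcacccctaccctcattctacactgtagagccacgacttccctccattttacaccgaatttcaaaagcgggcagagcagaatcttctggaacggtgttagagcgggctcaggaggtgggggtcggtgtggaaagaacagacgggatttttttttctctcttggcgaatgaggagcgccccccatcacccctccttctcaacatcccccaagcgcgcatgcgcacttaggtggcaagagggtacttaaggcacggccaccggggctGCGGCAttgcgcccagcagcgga
Mest: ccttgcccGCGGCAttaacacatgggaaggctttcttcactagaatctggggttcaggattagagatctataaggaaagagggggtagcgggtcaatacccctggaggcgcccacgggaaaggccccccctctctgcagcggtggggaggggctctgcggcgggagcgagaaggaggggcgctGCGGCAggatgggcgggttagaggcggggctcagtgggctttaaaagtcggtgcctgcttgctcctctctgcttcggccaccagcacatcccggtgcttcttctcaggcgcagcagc
Meg3: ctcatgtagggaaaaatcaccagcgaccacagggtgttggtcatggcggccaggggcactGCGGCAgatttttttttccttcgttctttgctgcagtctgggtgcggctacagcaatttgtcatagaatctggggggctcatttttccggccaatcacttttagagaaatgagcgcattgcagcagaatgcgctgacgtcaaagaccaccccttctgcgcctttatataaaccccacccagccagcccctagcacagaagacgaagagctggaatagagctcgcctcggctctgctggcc

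The hexamer was searched on both strands and each window was counted once; the 2 strands' forms can share letters. Of 16 start windows of the 9 genes, 7 held it, against 11.6% of 32851 windows of all genes, and these 7 belong to 6 genes: Igf2, Meg3, Plagl1, Grb10, Mest and Nnat. The pair of Mest windows that hold it overlap nearly whole. Mest and Meg3 each have another start window without it, not printed above. Igf2, which also rose, has a window with it and others without, and none of them is printed. The hexamer contains a CG, and 13 of the 16 windows hold at least 8 of them. Of these 13, 7 held the hexamer, against 21% of all windows with at least 8 CG. The windows of Nnat and Mest printed above each hold 17 CG, and that of Meg3 holds 13, where the median of all windows is 7. Plagl1 and Grb10 did not pass the test of expression given next although they hold the hexamer, and Dlk1 and Peg3 passed it without holding it. A match is a description of these letters only.

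The deleted genes were checked first. Hdac1 measured 8.75, 8.96 and 8.85 on the dKO arrays, against 10.48, 10.38 and 10.36 on the control arrays (log2 change -1.55, SE 0.13, adjusted p = 0.000271). Hdac2 measured 11.22, 10.81 and 11.19 on the dKO arrays, against 12.34, 12.33 and 12.33 on the control arrays (log2 change -1.26, SE 0.15, adjusted p = 0.00103). Both were lower on every dKO array, as labelled, and the change of Hdac2 was -0.71 with probe sets averaged. Over tested genes, arrays of a group correlated at 0.980 or more, and arrays of different groups at 0.925 to 0.963.

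All 9 measured genes had a higher mean in dKO nerves, and 6 rose: Nnat, Mest, Igf2, Meg3, Peg3 and Dlk1. The count was 3 without dKO 1, dKO 3 or control 1, and 4 without any 1 of the other arrays. It was 2, Nnat and Mest, with same-numbered replicates fitted as blocks. Values are log2 expression, a step of 1 being a doubling, and each change is the dKO mean minus the control mean, given with a standard error (SE). A gene is called when limma's p, adjusted by Benjamini-Hochberg over all tested genes, is under 0.05. Across the 14550 tested genes, 12.6% were called higher and 9.38% lower (22% either way), against 6 and 0 of these 9. Values of the 3 dKO arrays lay above those of all 3 control arrays for 8 of the 9 genes, against 22.6% of all genes, and lay below them for none, against 18.4%. A change above 0 was found for 50.7% of all genes. The median change was 0.59, against 0.01 over all tested genes. All 9 genes were above the low-value limit of 4 on every array, so none entered through the dKO group alone. In RNA from mixed cells, more or fewer cells of a type and more or less RNA per cell cannot be told apart.

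**Figure D1:**
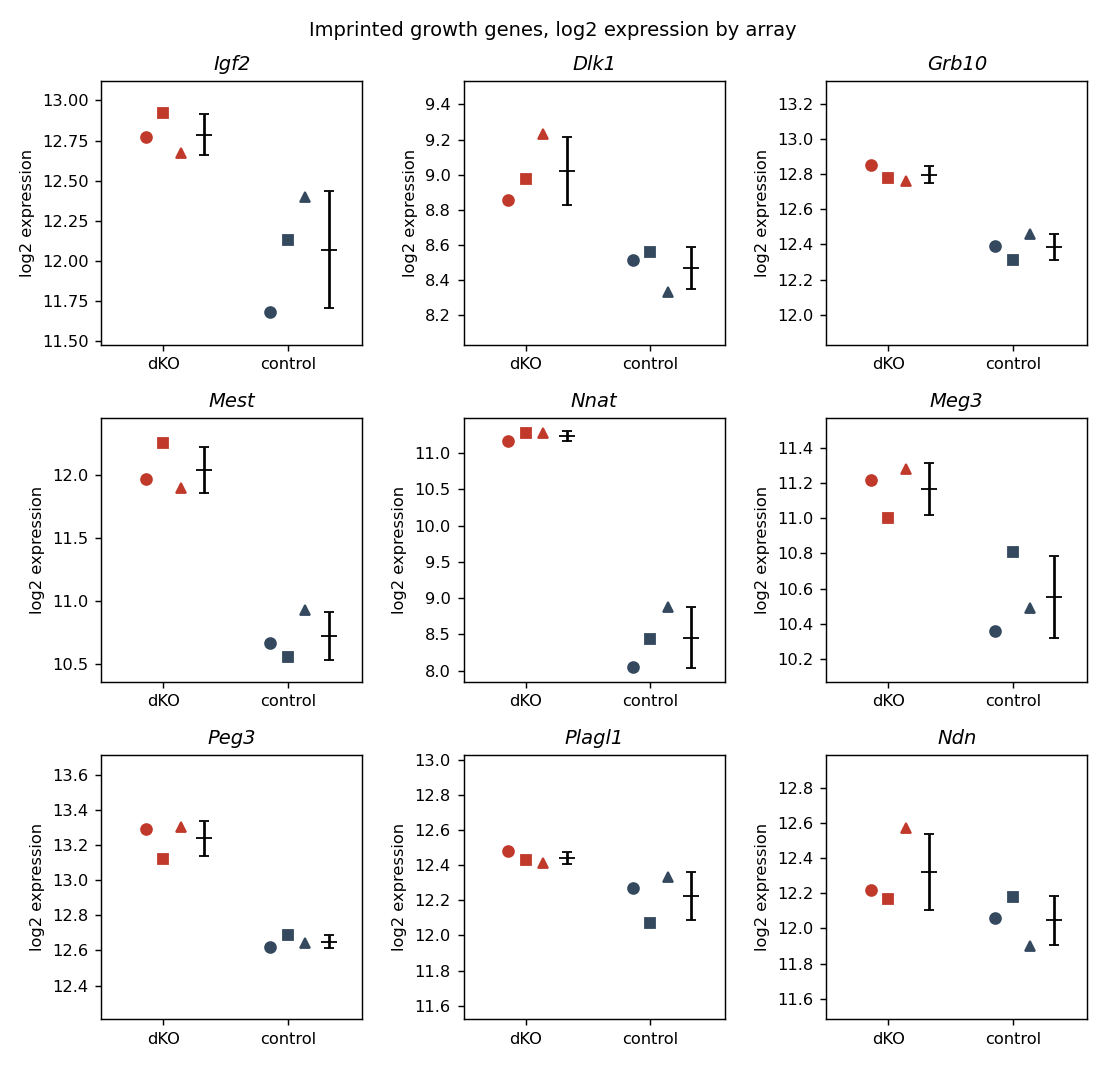
Log2 expression of the 9 measured imprinted growth genes on each array (vertical axes, each panel with its own range), with 3 dKO arrays at left and 3 control arrays at right. Circles, squares and triangles are replicates 1, 2 and 3, whose numbers are not shown to pair the samples. The bar beside each group is the mean with its SD. The dKO points lie above every control point in all panels except Ndn.

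Among the 9, Nnat changed most. It encodes neuronatin, a small membrane protein of the endoplasmic reticulum that is high in developing brain. Nnat measured 11.16, 11.27 and 11.28 on the dKO arrays, against 8.05, 8.44 and 8.88 on the control arrays. The dKO arrays lay within 0.12 of each other, while the control arrays spread over 0.83. The means were 11.24 ± 0.07 in dKO and 8.46 ± 0.42 in control nerves (SD, n = 3 each), a log2 change of 2.78 (SE 0.21, adjusted p = 0.000187), or 6.87-fold. This placed Nnat at rank 53 of the 14550 genes by size of increase.

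Mest, which encodes a membrane protein of the alpha/beta hydrolase fold known from mesoderm, was the only other member that more than doubled by its brightest probe set. Mest measured 11.97, 12.25 and 11.90 on the dKO arrays, against 10.67, 10.56 and 10.93 on the control arrays. The gap between the groups was wider than the spread within either. The means were 12.04 ± 0.19 in dKO and 10.72 ± 0.19 in control nerves (SD, n = 3 each), a log2 change of 1.32 (SE 0.16, adjusted p = 0.00107), or 2.50-fold. The calls of Nnat and Mest held under all 14 alternative settings, including each array left out. Each rests on a single probe set.

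Igf2, the ligand of the set, measured 12.77, 12.92 and 12.67 on the dKO arrays, against 11.68, 12.13 and 12.40 on the control arrays. The dKO arrays were close together, and the control arrays covered 0.72, as wide as the change itself. The means were 12.79 ± 0.13 in dKO and 12.07 ± 0.36 in control nerves (SD, n = 3 each), a log2 change of 0.72 (SE 0.20, adjusted p = 0.0348), or 1.64-fold. Its other probe set gave 11.91, 12.24 and 11.71 in dKO, against 10.34, 11.04 and 11.38 in control nerves, a change of 1.03 (SE 0.27, adjusted p = 0.0368 over all probe sets). The call of Igf2 was lost without dKO 1, dKO 2, dKO 3, control 1 or control 2 (adjusted p up to 0.110), and with each array centred on its median (change 0.64, adjusted p = 0.0572).

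Dlk1 encodes a transmembrane protein with EGF-like repeats, related to the Notch ligands and known to keep fat and muscle precursors immature. Dlk1 measured 8.86, 8.97 and 9.23 on the dKO arrays, against 8.51, 8.56 and 8.33 on the control arrays. The groups did not overlap, with 0.29 between the nearest arrays. The means were 9.02 ± 0.19 in dKO and 8.47 ± 0.12 in control nerves (SD, n = 3 each), a log2 change of 0.55 (SE 0.15, adjusted p = 0.0361). Its second, dimmer probe set had a change of 0.47 that did not pass (adjusted p = 0.120 over all probe sets). The call was lost without dKO 2, dKO 3 or any 1 of the control arrays (adjusted p up to 0.118).

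Meg3, the maternally expressed noncoding RNA next to Dlk1, measured 11.22, 11.00 and 11.28 on the dKO arrays, against 10.36, 10.81 and 10.49 on the control arrays. The lowest dKO array lay 0.19 above the highest control array. The means were 11.17 ± 0.15 in dKO and 10.55 ± 0.23 in control nerves (SD, n = 3 each), a log2 change of 0.61 (SE 0.17, adjusted p = 0.0320). The call was lost without dKO 1, dKO 3, control 1 or control 3 (adjusted p up to 0.0955).

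Meg3 has 11 probe sets, and their changes differed in size. The 3 brightest were the 3 that were called, the others of these having changes of 0.73 and 0.99. Of all 11, 7 had groups that did not overlap, and the changes ran from -0.08 to 0.99 with a median of 0.43. Meg3 is spliced into many forms, and which form each probe set reads was not analysed here.

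Dlk1 and Meg3 are read from opposite parental copies of the same cluster, and their changes were set against each other on each array. The Dlk1 value minus the Meg3 value was -2.36, -2.03 and -2.05 on the dKO arrays, against -1.85, -2.25 and -2.16 on the control arrays. The groups overlapped. The difference changed by -0.061 (SE 0.16), with p = 0.8 in an exact permutation test (two-sided, n = 3 each), where 3 against 3 arrays cannot go below 0.1. The sign of this small value turned to 0.087 with probe sets averaged, and also without dKO 1 or control 1 (0.048 and 0.057).

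Peg3, a zinc finger gene whose loss in mice is known to affect growth and maternal care, measured 13.29, 13.12 and 13.30 on the dKO arrays, against 12.62, 12.69 and 12.64 on the control arrays. The control arrays lay within 0.07 of each other, and the lowest dKO array was clear of them. The means were 13.24 ± 0.10 in dKO and 12.65 ± 0.04 in control nerves (SD, n = 3 each), a log2 change of 0.59 (SE 0.13, adjusted p = 0.0148); this is 1.5-fold. All 3 of its probe sets above the limit were called, with changes of 0.59, 0.67 and 0.84. Without dKO 1 the call was lost (adjusted p = 0.0537).

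Grb10, Plagl1 and Ndn did not pass the test. Grb10 measured 12.85, 12.78 and 12.76 on the dKO arrays, against 12.39, 12.31 and 12.46 on the control arrays. Its groups did not overlap, and its change of 0.41 (SE 0.13, adjusted p = 0.0551, 95% interval 0.11 to 0.71) missed the threshold narrowly. It passed with an intensity trend in the variance model (adjusted p = 0.00788) and when only genes at 6 or more were tested (adjusted p = 0.0420).

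Plagl1 encodes a zinc finger factor known to drive other imprinted genes, Igf2 and Dlk1 among them. Plagl1 measured 12.48, 12.43 and 12.41 on the dKO arrays, against 12.27, 12.07 and 12.33 on the control arrays. The groups lay apart by only 0.08. Its change was 0.22 (SE 0.14, adjusted p = 0.303, 95% interval -0.10 to 0.53), and 0 of its 3 probe sets were called.

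Ndn encodes necdin, a MAGE family protein of postmitotic neurons. Ndn measured 12.22, 12.17 and 12.57 on the dKO arrays, against 12.06, 12.18 and 11.90 on the control arrays. It was the only member whose groups overlapped, with dKO 2 just under control 2. Its change was 0.27 (SE 0.16, adjusted p = 0.275, 95% interval -0.10 to 0.65). The 5 Ndn probe sets above the limit had changes of 0.18 to 0.36, and 0 were called.

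**Figure D2:**
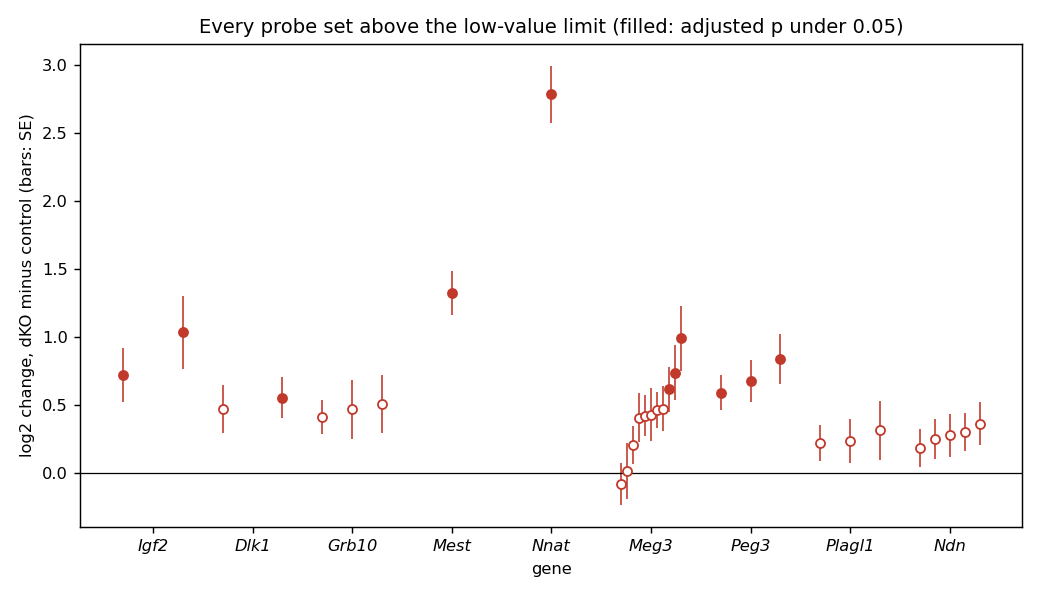
Log2 change, dKO minus control, of each of the 31 probe sets above the low-value limit, grouped by gene on the horizontal axis, with bars for the SE. Filled points passed an adjusted p of 0.05 over all probe sets. Filled points occur for Igf2, Dlk1, Mest, Nnat, Meg3 and Peg3, and 30 of the 31 changes are above 0.

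Over all members there were 36 probe sets, of which 31 were above the limit and 5 under it, 2 of Peg3 and 3 of Ndn. Of the 31, 11 were called higher and 0 lower, and 20 had dKO values above all control values. Probe sets of 1 gene are not independent, and Meg3 holds 11 of the 31 and Ndn 5. The shares over all probe sets were not computed, so nothing is read from these counts.

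The shifts of the members and of myelin genes were set side by side on each dKO array. The median shift of the 9 genes from the control mean was 0.64 on dKO 1, 0.47 on dKO 2 and 0.65 on dKO 3. For 8 myelin genes, among them Mag and Ncmap, the median shift was -2.68 on dKO 1, -4.53 on dKO 2 and -4.30 on dKO 3. By this median the members' shift was lowest on dKO 2, and the myelin shift was nearest to 0 on dKO 1. By mean level the members were lowest on dKO 1 (11.87, against 11.88 on dKO 2 and 11.93 on dKO 3). The order of the dKO arrays thus turns on the measure, and nothing is read from it. All 8 of these myelin genes fell, against 9.38% of all tested genes.

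Each member but Plagl1 had 1 to 10 other tested imprinted genes near it, too few to compare members by their counts. Nearness was set by distance alone, so these groups may span more than 1 imprinted cluster. Imprinted neighbours were taken from a list of 50 further imprinted genes, as those within 4 Mb of a member in RefSeq gene order on GRCm38.p6. In the Dlk1-Meg3 cluster on chromosome 12, the noncoding RNA gene Rian rose, with 11.21, 11.35 and 11.45 in dKO nerves, against 10.73, 10.54 and 10.84 in control nerves. Its change of 0.63 (SE 0.15, adjusted p = 0.0170) is close to those of Dlk1 and Meg3, and the call was lost without dKO 2 or control 2 (adjusted p up to 0.0693) and with its probe sets averaged (change 0.39). Mirg, a microRNA host further along the same cluster, had a change of 0.74 (SE 0.24, adjusted p = 0.0634) and dKO values above all control values. Mirg passed without control 2 (adjusted p = 0.0488) and with probe sets averaged (change 0.42, adjusted p = 0.0292).

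Around Igf2 on chromosome 7, 0 of 10 tested imprinted neighbours were called in either direction. H19, the neighbour named with Igf2 above, is not among the 10. A probe set annotated to both H19 and Mir675, and assigned to neither, had a change of 0.54 (SE 0.14, adjusted p = 0.0446 over all probe sets). Among the 10, Ins2, the insulin gene beside Igf2, had a change of -0.34 (SE 0.16, adjusted p = 0.166). Ins2 was dim, at 4.68 to 5.38 over the arrays, so its not being called says little. Cdkn1c, which encodes the growth-restraining cell cycle inhibitor p57, had a change of -0.32 (SE 0.20, adjusted p = 0.298). Whether Igf2 differs from these neighbours was not tested.

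Blcap, which overlaps Nnat on chromosome 2, measured 8.61, 9.07 and 8.60 in dKO nerves, against 7.26, 8.15 and 8.22 in control nerves. Its change of 0.88 (SE 0.27, adjusted p = 0.0499) lay at the threshold and was lost without any 1 of the dKO arrays, control 1 or control 2 (adjusted p up to 0.152), with each array centred on its median, and under 3 other settings (9 of 14 in all). Near Mest on chromosome 6, Klf14, a maternally expressed transcription factor gene, rose by 0.97 (SE 0.21, adjusted p = 0.0126), and Copg2, a coat protein gene next to Mest, had a change of 0.26 (SE 0.18, adjusted p = 0.346).

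Near Grb10 on chromosome 11, Ddc, which encodes aromatic amino acid decarboxylase, measured 5.66, 6.16 and 5.90 in dKO nerves, against 4.61, 3.90 and 4.47 in control nerves. Control 2 was under the limit, so the control arrays alone would not have brought Ddc into the test. With that value set to 4 Ddc was 2.92-fold higher (adjusted p = 0.00178 in the test of the values as measured). With its probe sets averaged the change was 0.90, against 1.58 as tested. Cobl, an actin nucleator gene on the other side of Grb10, had a change of 0.59 (SE 0.20, adjusted p = 0.0690), which passed without control 3 (adjusted p = 0.0409). Around Ndn on chromosome 7, 1 of 6 imprinted neighbours rose, the paternally expressed Peg12 (change 1.23, SE 0.23, adjusted p = 0.00666), and the MAGE gene Magel2 had a change of 0.47 (SE 0.22, adjusted p = 0.162). Both neighbours of Peg3, Zim1 and Usp29, were not called, with changes of 0.37 (SE 0.19) and 0.28 (SE 0.15). No gene of the list lay near Plagl1.

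**Figure D3:**
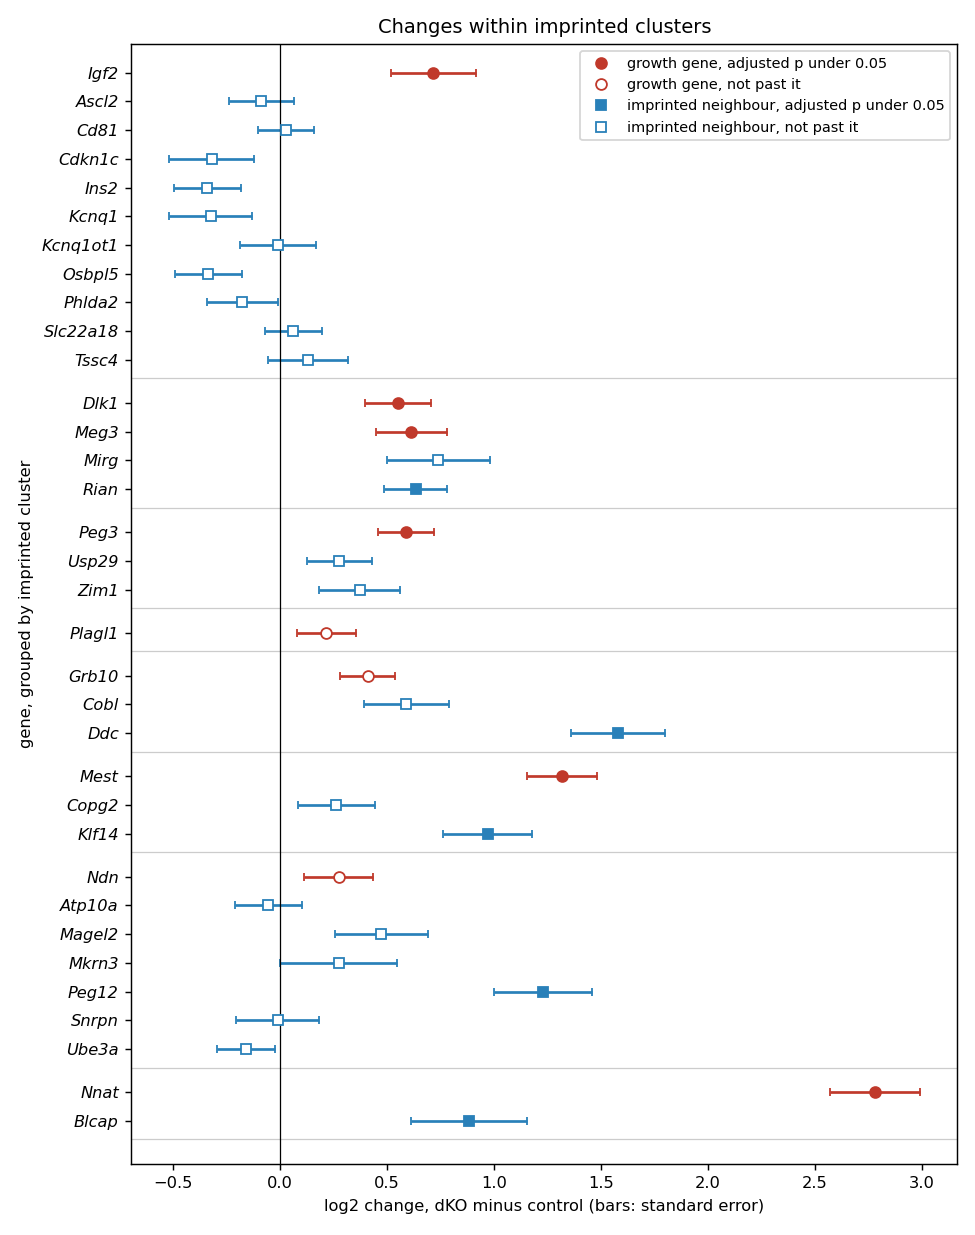
Log2 change, dKO minus control, with its SE as a bar, for the imprinted growth genes (red circles) and their listed imprinted neighbours (blue squares). Neighbours are grouped down the page by the member they lie near. Filled symbols passed an adjusted p of 0.05. In the Dlk1-Meg3 cluster all 4 genes lie between 0.55 and 0.74, while around Igf2 the listed neighbours lie between -0.34 and 0.13. H19 is not shown.

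All tested genes within 1 Mb, imprinted or not, were then counted, beside 12.6% higher and 9.38% lower among all genes. With so few genes to a window, nothing is read from these counts. Around Igf2, 1 of 30 such genes was higher and 4 were lower. Around Nnat, 5 of 26 were higher and 0 lower. Around Mest the counts were 3 higher and 1 lower of 14, and around Peg3 they were 0 and 1 of 17. Around Meg3, 3 of 12 were higher, namely Dlk1, Rian and Evl. Around Plagl1 the counts were 2 higher and 2 lower of 10, around Grb10 they were 2 and 0 of 9, and around Ndn 1 and 0 of 5.

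Of the 50 other imprinted genes, 43 had a probe set of their own and 41 were tested. Of these, 10 rose and 0 fell, or 24.4% higher against 12.6% of all genes, with a median change of 0.11. Slc38a4, a paternally expressed amino acid transporter gene, measured 8.77, 8.85 and 9.04 in dKO nerves, against 5.65, 6.72 and 7.03 in control nerves, a change of 2.42 (SE 0.32, adjusted p = 0.00148). Igf2r, the receptor gene that clears IGF2, rose by 1.18 (SE 0.18, adjusted p = 0.00259). Nap1l5, counted among the 10, was under the limit on all control arrays and so entered the test through the dKO arrays alone. Its fold over control was at least 1.74. Dcn, the proteoglycan gene decorin, rose by 0.86 (SE 0.20), and Zdbf2, a paternally expressed zinc finger gene, by 0.81 (SE 0.21). The call of Dcn was lost without dKO 2 or control 2 (adjusted p up to 0.0618), and that of Zdbf2 without dKO 1, dKO 3 or control 3 (adjusted p up to 0.0808).

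Genes that encode, bind or receive IGF ligands, or act below their receptors, were listed as the pathway of Igf2. Of 21 tested genes of this list, 9 rose and 1 fell, against 12.6% and 9.38% of all genes, with a median change of 0.64. All 6 listed Igfbp genes, Igfbp2 to Igfbp7, which encode binding proteins of the IGFs, were among those that rose. Igfbp1 was not on the list. Igfbpl1, also tested, was dim and was not called (change -0.17, SE 0.14, adjusted p = 0.441). Igfbp6 rose by 2.18 (SE 0.39), Igfbp3 by 2.03 (SE 0.22), Igfbp5 by 1.53 (SE 0.21), Igfbp4 by 1.45 (SE 0.17), Igfbp2 by 1.27 (SE 0.30) and Igfbp7 by 1.08 (SE 0.26). Igfbp6, which encodes a binding protein that prefers IGF2, measured 8.84, 9.08 and 9.53 in dKO nerves, against 6.19, 6.87 and 7.86 in control nerves. Igf1, the other ligand gene, rose by 0.86 (SE 0.19, adjusted p = 0.0133), and the signalling receptor gene Igf1r by 0.75 (SE 0.20, adjusted p = 0.0284). Grb14, an adaptor of the Grb10 family, was the gene that fell, with a change of -0.89 (SE 0.22, adjusted p = 0.0240).

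Some of these calls were lost when an array was left out, which also lowered the calls over all genes from 3198 to between 2178 and 2916. That of Igfbp2 was lost without dKO 2, control 1 or control 2, that of Igf1 without dKO 2, that of Igfbp7 without dKO 3, and that of Grb14 without dKO 2, dKO 3, control 2 or control 3 (adjusted p up to 0.0845 over these genes). The call of Igf1r was lost without dKO 1, dKO 2 or any 1 of the control arrays, and with each array centred on its median (adjusted p up to 0.0958). With probe sets averaged the changes of Igf1r and Igfbp7 were 0.50 and 0.51.

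**Figure D4:**
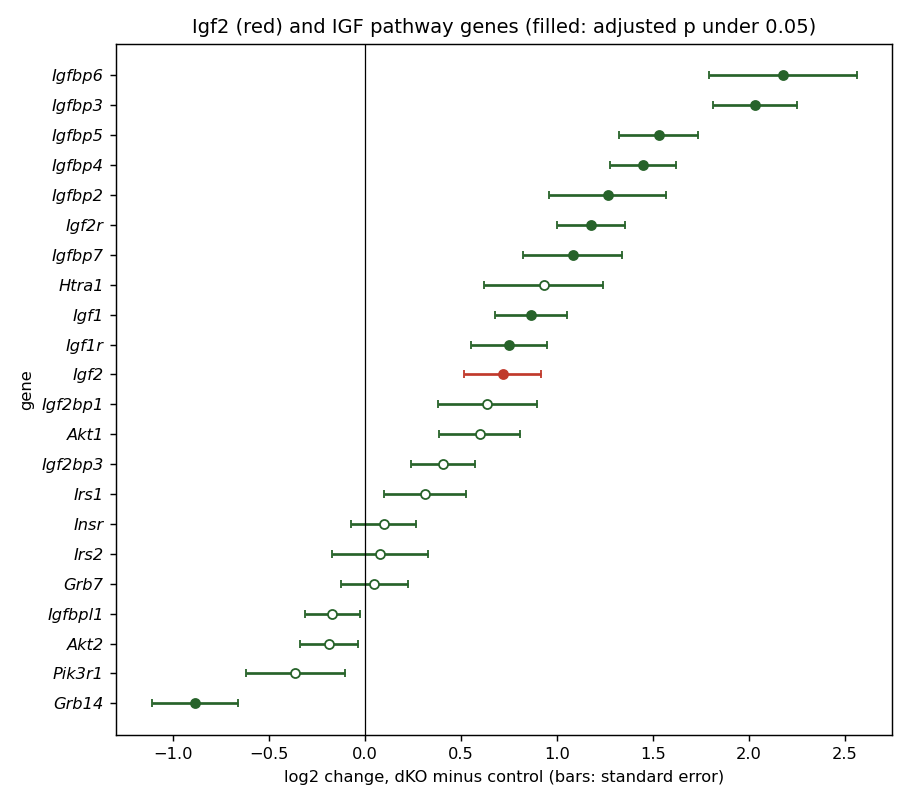
Log2 change, dKO minus control, with its SE as a bar, for Igf2 (red) and the 21 tested genes of IGF ligands, receptors, binding proteins and adaptors (green), ordered from high at the top to low. Filled points passed an adjusted p of 0.05. Igf2 lies at 0.72, below the 6 genes Igfbp2 to Igfbp7, all of which were called.

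A further list held genes that keep or read imprints and DNA methylation. Of 30 tested, 3 rose and 0 fell, or 10% higher, under the 12.6% of all genes, with a median change of 0.23. Sin3a, a scaffold of HDAC1 and HDAC2 complexes, rose by 0.84 (SE 0.20, adjusted p = 0.0208). Arid4a, which encodes a partner of that scaffold, rose by 0.68 (SE 0.14, adjusted p = 0.0107). Zfp57, the gene of the hexamer-binding protein, measured 6.92, 7.09 and 7.37 in dKO nerves, against 6.52, 6.60 and 6.54 in control nerves, a change of 0.57 (SE 0.15, adjusted p = 0.0312). The call of Zfp57 was lost without dKO 2, dKO 3 or any 1 of the control arrays (adjusted p up to 0.0849), and that of Sin3a without dKO 1, dKO 2 or control 2 (adjusted p up to 0.0755). Without dKO 2 or control 2 the list had 1 call.

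Of 16 Notch pathway genes, listed because DLK1 is related to Notch ligands, 3 rose and 1 fell, or 18.75% higher against 12.6% of all genes. The 4 calls of 16 are near the 22% called among all genes. Hey2, a target repressor, measured 6.72, 6.41 and 7.60 in dKO nerves, against 3.36, 4.05 and 3.53 in control nerves, where control 1 and control 3 were under the limit. With those values set to 4 it was 7.43-fold higher (adjusted p = 0.000402 in the test of the values as measured). Hey2 is counted among the 3, though the control arrays alone would not have brought it into the test. The ligand gene Jag1 rose by 1.45 (SE 0.15) and the receptor gene Notch3 by 1.34 (SE 0.16), while the target Hey1 fell by 1.04 (SE 0.21).

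Likeness of pattern was measured as Pearson's r of log2 level over the 6 arrays. These r values carry the difference between the groups, and no p is given. Closest to Igf2 were Cyb5r4, Fam107b and Cst3 (r = 0.996, 0.996 and 0.995). Nearest to Dlk1 were Ccdc96, Efna2 and Ctnnbip1 (r = 0.998, 0.997 and 0.997), and Meg3 ranked 1451 among 14549 genes (r = 0.877). Closest to Meg3 were AI504432, Zfp362 and Ing1 (r = 0.996, 0.993 and 0.992), and among the members Peg3 came nearest, at rank 233 (r = 0.944).

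Imprinted growth genes are also high in connective tissue, vessels and muscle, and markers of those cells were read on the same arrays. All marker counts below stand beside 12.6% called higher and 9.38% lower among all tested genes. With lists this short, nothing is read from the counts. Of 9 endoneurial fibroblast markers, 4 rose and 0 fell, with a median change of 0.53. Their summed linear level was 41050 to 43691 in dKO and 37474 to 39445 in control nerves, and none was under the limit in every sample. Most of this sum came from Col1a1, Col1a2 and Col3a1, at 13.33 to 13.79 over the arrays, so it says little of the dimmer markers. Dpt, which encodes dermatopontin, measured 7.65, 6.42 and 6.87 in dKO nerves, against 3.10, 3.52 and 4.24 in control nerves (7.46-fold with values under the limit set to 4), and Fbln1, the fibulin gene, rose by 1.48 (SE 0.27). Dpt, counted among the 4, was under the limit on control 1 and control 2, so the control arrays alone would not have brought it into the test. The collagen genes Col1a1 and Col3a1 had changes of 0.12 (SE 0.13) and 0.11 (SE 0.13) that did not pass. Control 1 was the lowest and control 3 the highest control array for the mean of these markers (9.31 and 9.79). Igf2 and Nnat had that order too, and the other 7 of the 9 members did not. The mean of the 9 members had it as well (10.96 on control 1 and 11.15 on control 3). So did the means of the perineurial markers (6.23 and 6.84) and of the IGF list (8.06 and 8.38), so the order is not particular to fibroblast markers. On the dKO arrays the marker mean was lowest on dKO 2 (10.31), where Igf2 was highest (12.92). By median shift from the control mean the markers were lowest on dKO 1 (0.22, against 0.31 on dKO 2 and 0.95 on dKO 3). Nothing is read from either order. The part of these markers in the results was not tested.

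Of 8 tested perineurial markers, 3 rose and 1 fell, with Cldn1 at 9.02, 9.10 and 8.87 in dKO nerves, against 6.41, 7.22 and 8.25 in control nerves, and Ntn4 rising by 1.65 (SE 0.19). The 1 that fell was Itgb4, with a change of -0.62 (SE 0.17, adjusted p = 0.0368). The change of Cldn1 was 1.70, or 0.83 with probe sets averaged, and its call was lost without dKO 1, dKO 2 or control 2 (adjusted p up to 0.0584), and Msln was under the limit. Their summed level was 2949 to 3538 in dKO and 1814 to 2111 in control nerves. Of 8 pericyte and smooth muscle markers, 3 rose, Kcnj8 by 1.32 (SE 0.19) and Abcc9 by 0.69 (SE 0.13) among them, with sums of 3902 to 5325 in dKO and 2946 to 3212 in control nerves. Of 9 endothelial markers 0 were called, with Tek and Cdh5 at changes of 1.12 (SE 0.44) and 0.49 (SE 0.22), Cdh5 passing with probe sets averaged (change 0.82, adjusted p = 0.00998), and sums of 1617 to 2281 in dKO and 1219 to 1558 in control nerves.

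Skeletal muscle markers were low in both groups. Myl1, Myog and Pax7 were under the limit, 0 of the 7 tested were called, and their summed level was 217 to 286 in dKO and 203 to 289 in control nerves. The brightest by mean were Tnnc2 and Myh3, with changes of 0.19 (SE 0.23) and -0.09 (SE 0.35). Of 5 adipocyte markers 1 rose, Fabp4, by 2.30 (SE 0.39; 1.5 with probe sets averaged), and Adipoq was under the limit, with sums of 5286 to 8939 in dKO and 929 to 2296 in control nerves. Most of each of these sums came from Fabp4 alone. Of 3 cartilage and tendon markers 0 were called, with Col2a1 and Acan at changes of -0.34 (SE 0.28) and -0.24 (SE 0.14), sums of 438 to 547 in dKO and 432 to 839 in control nerves, and Matn1, Tnmd, Mkx and Comp not bright enough to test.

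Of 9 macrophage markers 2 rose, Aif1 by 1.06 (SE 0.28) and Tyrobp by 0.92 (SE 0.28), calls that were lost without dKO 2, control 2 or control 3 and, for Tyrobp, without control 1, with no low-value limit and with probe sets tested singly (adjusted p up to 0.136). The change of Tyrobp was 0.58 without dKO 3. Their sums were 3300 to 7443 in dKO and 2441 to 2824 in control nerves. Of 8 neuron markers 1 rose, Snap25, by 1.45 (SE 0.19), with sums of 2047 to 2600 in dKO and 1391 to 1944 in control nerves. Of 2 red blood cell markers 0 were called, Alas2 and Slc4a1 having changes of -0.20 (SE 0.44) and -0.03 (SE 0.56), with sums of 118 to 438 in dKO and 162 to 262 in control nerves. Of 7 pan-Schwann markers 2 rose and 2 fell, with Fabp7 at a change of 1.95 (SE 0.28) and Erbb3 at -1.33 (SE 0.25), and Sox10, the lineage factor, had a change of -0.36 (SE 0.26, adjusted p = 0.371). The summed pan-Schwann level was 5946 to 7198 in dKO and 8235 to 10231 in control nerves. The part of these other lists in the members' results was not tested.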

How the data were processed

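The authors deposited 1 table of log2 expression per probe set for 6 Affymetrix mouse arrays, 3 dKO and 3 control, grouped by their titles. Per the submitters' processing notes the tools were GCOS 1.2 and GCRMA, with no settings given. That the deposited scale is log2 follows from its values, which run from 1.66 to 14.94 with a median of 5.77 on every array over all probe sets (7.45 to 7.64 over the genes tested), so a shift shared by all genes would be hidden. Precision is limited by the 6 arrays. Changes had a median SE of 0.17.

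Of 45101 probe sets, 34958 had 1 gene symbol in the platform annotation. Symbols were updated through gene IDs with the RefSeq table of GRCm38.p6, where the IDs of 204 probe sets were not found. A gene's level is its probe set with the highest mean. Genes at 4 or more on at least 3 arrays were tested, 14550 of 18194, with limma 3.58.1 in R 4.3.3 (lmFit, eBayes, two-sided, no covariates, Benjamini-Hochberg over all genes tested). The fit was also run on simulated data, a check of the code only, from which nothing is read about the calls made here. Values under 4 were set to 4 for the folds said to be so. All IGF, imprinted, Notch and marker lists came from general knowledge, and the members and lists were chosen with earlier results of these data known. Igf2r is on 2 lists.

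The text names the members, Hdac1, Hdac2, the called genes of each list with the largest change (up to 12, 6, 4 or 3, and 2 for marker lists, or its 2 brightest genes) and the 3 genes most like Igf2, Dlk1 and Meg3. Mirg, Ins2, Cdkn1c, Copg2, Cobl, Magel2, Evl, Zim1, Usp29, Igf1, Igf1r, Igfbp7, Grb14, Hey1, Col1a1, Col1a2, Col3a1, Itgb4 and Sox10 were named after their values were seen. So was Igfbpl1. Alternatives were no limit or a limit of 6, probe sets averaged or tested singly, arrays centred on their median over tested genes, an intensity trend, robust variance, a replicate block and each array left out.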

Additional observations from a re-analysis of the deposited data

Results flagged for a closer look

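One signal lay outside the genes that could be named. A probe set that the annotation gives to both H19 and Mir675, a microRNA gene inside H19, was assigned to neither. It measured 12.26, 12.42 and 12.26 on the dKO arrays, against 11.93, 11.62 and 11.76 on the control arrays, a log2 change of 0.54 (SE 0.14, adjusted p = 0.0446 over all probe sets), and all dKO values lay above all control values.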

How the results depend on the processing

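Nnat and Mest kept their calls under all 14 alternatives, with changes of 2.58 to 2.99 and 1.22 to 1.43. Directions of all 9 growth genes held under each alternative, and 0 were called lower. With 6 called higher as reported, the count was 3 to 4 with an array left out (3 without dKO 1, dKO 3 or control 1), 5 with arrays centred and 7 with an intensity trend or a limit of 6. With a replicate block it was 2, and Igf2, Dlk1, Meg3 and Peg3 were not called there, nor were Zfp57, Igf1r and Grb14, while Tek was. The numbers are not shown to pair the samples, since deviations of same-numbered arrays correlated at 0.04, -0.12 and -0.23 over genes. Imprint control genes called numbered 3 as reported, 5 with probe sets averaged or tested singly, and 1 to 4 with an array left out. Over all genes, 3198 were called, and 2178 to 3479 under the alternatives. The Dlk1 minus Meg3 change of -0.061 became 0.087 with probe sets averaged and -0.14 to 0.057 with an array left out. With an array left out, changes near 0 of uncalled markers crossed it, among the markers named in the text with ranges of -0.045 to 0.35 for Tnnc2, -0.36 to 0.34 for Myh3, -0.77 to 0.16 for Alas2 and -0.74 to 0.40 for Slc4a1. The cause was not tested. The planned difference of Igf2 and H19 was not run, because H19 has no probe set of its own here.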
